A study of Mus musculus with 10 samples.

Results

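CD117+ splenocytes from RasGRP4-null mice were compared with those from wild-type (WT) mice after 12 h in lipopolysaccharide (LPS), the bacterial cell wall product that stimulates Toll-like receptor 4. The comparison rests on 2 of the 10 Affymetrix mouse gene arrays of the series, 1 for each genotype, chosen by the time and genotype in their titles. Both groups were male B6 mice, 9 to 12 weeks old, and their purified CD117+ splenocytes were cultured with 1 µg/ml LPS. The WT mice were obtained from a supplier, and the null mice were first housed at another facility. Differences of genotype and of colony therefore cannot be told apart in any comparison below. The null line carries a Rasgrp4 gene disrupted by homologous recombination in all cells and not in 1 cell type alone, and the cells of both groups were enriched with an antibody to CD117, the product of Kit. The other 8 arrays are the same cells of each genotype before LPS (0 h) and after 24, 36 and 48 h of LPS. The RasGRP4-null arrays titled 24, 36 and 48 h carry 12, 24 and 36 h in their source names, and the titles were followed here. The design text of the series also names 6 h and not 36 h among its times, so the hour of the arrays titled 36 h is in doubt. There were 5 mice of each genotype, and the sources used here do not say whether cells of several mice were pooled on an array or whether each mouse gave 1 time point. No array held cells cultured for 12 h without LPS. With 1 array a side the 12 h difference has no replicate, so the 4 RasGRP4-null minus WT differences at 0, 24, 36 and 48 h served as its reference spread.

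RasGRP4 is an exchange factor that loads Ras with GTP after a rise in diacylglycerol, and it acts upstream of the ERK kinases. It is best known from mast cells, and the study asked whether it also serves in CD117+ dendritic cells (DCs) of the spleen. LPS makes DCs mature. They display CD80, CD86 and CD40 and turn on NF-kappaB target genes. They also release IL-12, IL-15 and other cytokines that drive natural killer (NK) cells to make interferon-gamma (IFN-γ). The lower production of IFN-γ in the null mice was the subject of the study.

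Values are PLIER intensities, a summary of the probes of each probe set, and a difference is RasGRP4-null minus WT on the scale log2(PLIER value + 16), so that 1 is 2-fold. Folds are on the same scale and understate the difference of dim genes. The background of an array was set at percentile 95 of its 1089 probe sets for olfactory receptors, at 29.7 on the WT and 32.0 on the RasGRP4-null array of 12 h, and a value counts as above background beyond it. Of 25664 genes with a probe set of their own, 11185 reached an intensity of 50 on at least 2 arrays and were tested. Across these genes the RasGRP4-null and WT arrays of 12 h correlated at r = 0.967 as a description, against 0.956 for the RasGRP4-null arrays of 12 and 24 h and 0.971 for the WT arrays of 12 and 24 h. The WT array of 12 h correlated at 0.974 with the RasGRP4-null array titled 24 h, more than with that titled 12 h. The intensity of Gapdh, by which the authors scaled a second set of values, was 3893 on the WT and 2815 on the RasGRP4-null array of 12 h. The scaling factors were 1.0 and 1.31, so GAPDH-normalized values raise the median difference of all genes, which lay within 0.01 of 0, to 0.34.

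The targeted gene cannot check the genotype of the 12 h arrays. Rasgrp4 had an intensity of 86.4 in untreated WT cells and 16.7 in untreated RasGRP4-null cells. After 12 h of LPS the genotypes read 25.4 and 23.7, and from 24 to 48 h it lay between 20.6 and 25.5 in both genotypes. Only the untreated WT value was above background. The 12 h differences of its tested relatives lay inside the range of the other times. Rasgrp1, the exchange factor of T cells, read 161 in WT and 134 in RasGRP4-null cells, and Rasgrp3, which B cells and macrophages use, read 969 and 1032. Rasgrp2, a platelet exchange factor, was not above background on either array of 12 h (26.4 and 26.5).

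Other genes that separated the genotypes were therefore read on the 12 h arrays. In limma over the 8 arrays of the other time points, with time point and genotype as terms, 17 of the 11185 genes differed by genotype after Benjamini-Hochberg adjustment (0.152%), 16 of them higher in RasGRP4-null cells; this fit was added after the data had been seen. Of these 16 genes, 13 were also higher in RasGRP4-null cells at 12 h, and in 11 the 12 h difference was below all 4 others. Since the 16 genes were chosen for a large difference at those 4 times, a smaller one at 12 h is favoured by the choice and is given as a description. Pydc3, a member of the pyrin-domain family, was the 1 gene that was lower. It read 152 in WT and 11.1 in RasGRP4-null cells at 12 h, a difference of -2.63 that lay inside the range of the other times (-2.76 to -1.02). The RasGRP4-null value was not above background, so WT was at least 3.50-fold higher. Igkv19-93, an immunoglobulin light chain segment, read 1189.6 and 2713 at 12 h, a difference of 1.18 just above the 0.88 to 1.07 of the other times.

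Mela went against the genotype label. This melanoma antigen gene read 3825, 2114, 2726 and 3594 on the RasGRP4-null arrays of 0, 24, 36 and 48 h, and 44.2, 47.9, 55.3, 88.5 and 83.6 on the 5 WT arrays in order of time. On the RasGRP4-null array of 12 h it was 21.2, below background and below each WT value, so that WT was at least 1.33-fold higher at 12 h. The antibody genes Ighg3 and Igk-V28 were in between. Ighg3 read 532 in WT and 1067 in RasGRP4-null cells at 12 h, a difference of 0.98 against 1.24 to 2.26 at the other times, and Igk-V28 read 141 and 172, a difference of 0.26 against 0.75 to 1.68. Thus the array titled RasGRP4-null 12 h carried the low Pydc3 and high Igkv19-93 of the other null arrays and lacked their Mela. Every result below rests on this array. When the RasGRP4-null array titled 24 h, whose source name gives 12 h, was set in its place, only 3 of the 90 genes that were over 2-fold higher at 12 h, and 7 of the 39 that were over 2-fold lower, were past 2-fold in the same direction. The list medians given below for 12 h then moved from 0.67 to 0.08 for DC maturation, from 0.39 to -0.04 for NF-kappaB, from -0.59 to 0.37 for B cells and from -0.54 to 0.90 for proliferation. Those of the IFN-γ regulators moved from 0.48 to 0.08, of p53 genes from 0.39 to -0.02, of mast cell genes from 0.51 to 0.15 and of plasma cell genes from -0.10 to 0.62. The medians of inflammatory genes (0.38 to -0.40) and macrophage genes (0.24 to -0.08) changed sign, that of glycolysis moved from -0.22 to -0.01, and that of cholesterol synthesis was -0.28 in place of -0.24. Medians of antiviral interferon-stimulated genes (0.11 to -0.27), genes induced by IFN-γ (0.14 to -0.05) and monocyte genes (-0.27 to 0.18) changed sign too. So did those of MHC class II presentation (-0.31 to 0.31), XCR1-type conventional DCs (-0.05 to 0.15) and the unfolded protein response (-0.07 to 0.26). The median of Ras and ERK transcripts moved from 0.23 to 0.03, and that of NK cell genes from -0.19 to -0.08.

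**Figure D1:**
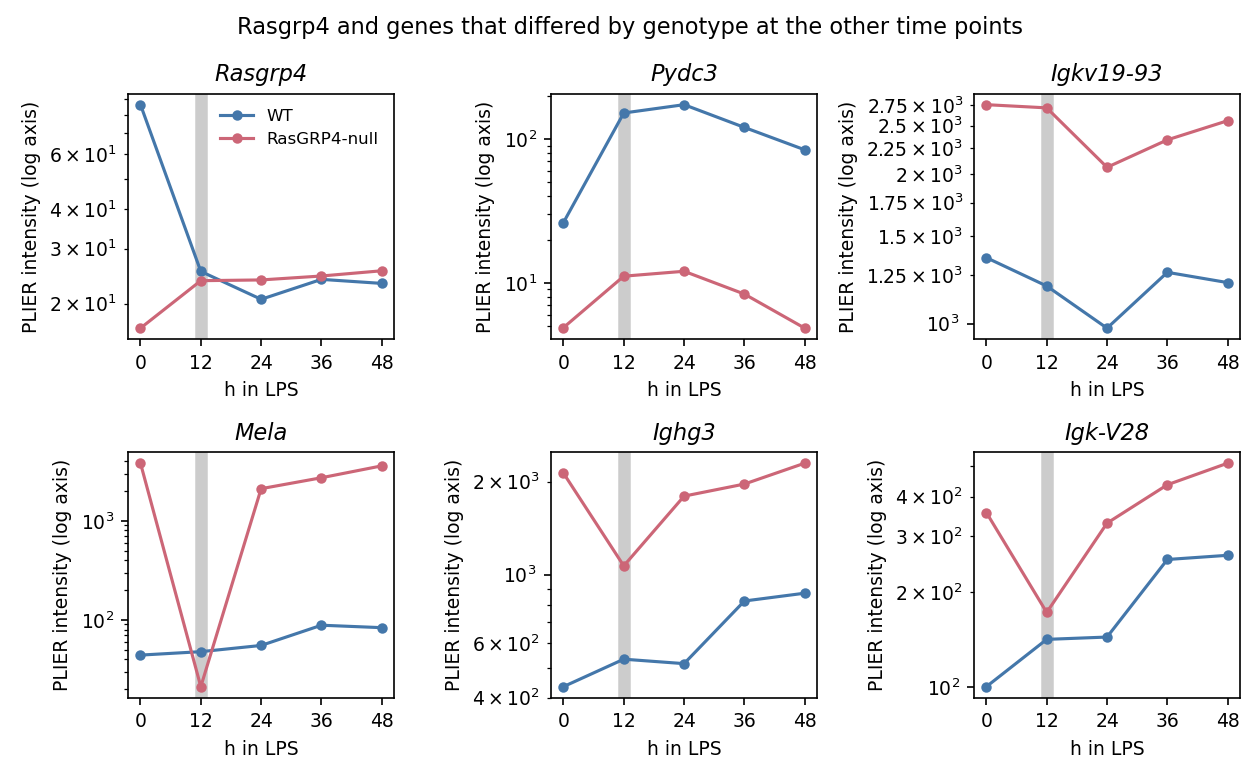
PLIER intensity (log axis) of Rasgrp4 and of 5 genes that differed by genotype over the other time points, against hours in LPS, 1 array a point, with 12 h marked by a grey band. Mela drops to 21.2 on the RasGRP4-null array of 12 h, whereas Pydc3 (11.1) and Igkv19-93 (2713) stay at the level of the other RasGRP4-null arrays.

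The 12 h arrays differed in more genes than those of any other time point. At 12 h, 90 genes were over 2-fold higher in RasGRP4-null cells (0.805% of those tested) and 39 were over 2-fold lower (0.349%). Before LPS 30 were higher (0.268%) and 53 lower (0.474%). The pair of 24 h had 22 (0.197%) and 17 (0.152%), that of 36 h 14 (0.125%) and 22 (0.197%), and that of 48 h 27 (0.241%) and 9 (0.0805%). The standard deviation of the difference over all genes was 0.328 at 12 h and 0.231 to 0.286 at the other times. Of the 90 higher genes, 86 lay above all 4 other differences (0.769% of all genes were both) and 83 were above background on both 12 h arrays. Of the 39 lower genes, 35 lay below all 4 other differences (0.313%) and 32 were above background on both. On the GAPDH-normalized scale, where the median of all genes shifts by 0.34, the split became 381 higher and 7 lower.

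**Figure D2:**
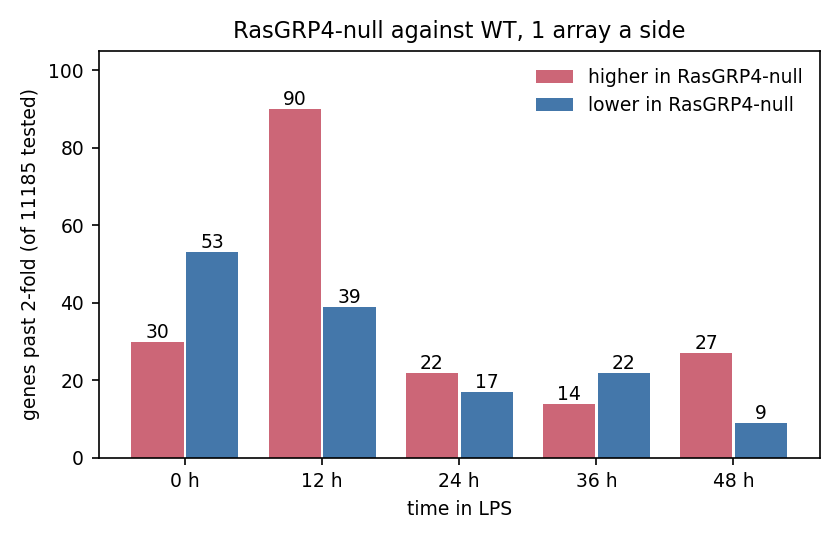
Number of the 11185 genes tested that differed by over 2-fold between the RasGRP4-null and WT arrays at each time in LPS (bars, 1 array a side, on the scale log2(PLIER value + 16)). The 12 h pair has the highest count, 90 higher and 39 lower.

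To ask whether a 12 h difference stood apart from the other 4, an indicator of the RasGRP4-null array of 12 h was fitted in limma to all 10 arrays beside time point and genotype. After Benjamini-Hochberg adjustment 1 gene was higher (0.00894%), Apol7c, and 1 was lower (0.00894%), Mela. At an unadjusted p below 0.05 there were 1299 genes, 556 higher and 743 lower. The same indicator called 5 genes higher (0.0447%) and 15 lower (0.134%) for the untreated pair and none for the pairs of 24, 36 and 48 h, which had 658, 122 and 255 genes (0 h had 839) at an unadjusted p below 0.05. The spread in this fit is that between time points, with 3 residual degrees of freedom, and does not replicate 12 h. A gene that missed the threshold was therefore not shown to be without a difference, of 2-fold included.

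Apol7c, an apolipoprotein L family gene, showed the largest positive difference. Over the 5 times from 0 to 48 h, WT cells read 469.7, 73.7, 56.0, 33.9 and 25.2. RasGRP4-null cells read 501, 591, 83.3, 42.2 and 33.0. Apol7c was thus low in both genotypes from 24 h on, but at 12 h the RasGRP4-null value was above the untreated one and 6.77-fold that of WT. The 12 h difference of 2.76 stood against 0.09 to 0.46 at the other times, and the limma coefficient was 2.50 (SE 0.209, adjusted p = 0.00203). Of the 60 genes over 2-fold higher that had a RefSeq promoter, 2 (3.33%), Apol7c among them, held on either strand a simple form of the interferon-stimulated response element, TTTC, any 2 bases and TTTC again. Of all 27025 genes with a RefSeq promoter, 3.99% held it. The promoter of Apol7c is shown because it is the only gene called higher. It covers chr15:77533266-77533565 of GRCm38.p6, minus strand, from 250 bases before to 50 after the start. The capitals mark a pair of overlapping matches to that motif.

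Apol7c promoter: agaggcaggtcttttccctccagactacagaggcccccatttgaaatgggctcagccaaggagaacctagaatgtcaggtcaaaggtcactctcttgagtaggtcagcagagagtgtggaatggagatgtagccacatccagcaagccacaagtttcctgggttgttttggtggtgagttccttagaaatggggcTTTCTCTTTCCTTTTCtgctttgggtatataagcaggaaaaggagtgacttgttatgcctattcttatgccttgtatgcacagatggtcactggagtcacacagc

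Ccl22 and Ccl17, which encode the chemokines that attract T cells through CCR4, were both much brighter on the RasGRP4-null array of 12 h. Ccl22 read 25.0, 394, 392, 402 and 378 in WT cells and 34.1, 1503, 574, 572 and 478 in RasGRP4-null cells from 0 to 48 h. WT cells thus held a level plateau from 12 h on, and RasGRP4-null cells a peak at 12 h, 3.71-fold the WT value. Its coefficient of 1.48 (SE 0.200) had an adjusted p of 0.0720 in limma. Ccl17 read 35.6 in WT and 298 in RasGRP4-null cells at 12 h (6.08-fold) and no more than 35.5 on the other 8 arrays, so that it failed the filter and was not tested.

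The other largest positive differences included a Notch ligand, an enzyme of retinoic acid synthesis and a pair of early response genes, with limma p-values that missed the threshold. Dll4, a Notch ligand, read 154 in WT and 517 in RasGRP4-null cells at 12 h, a difference of 1.65 against -0.25 to 0.62 at the other times. Aldh1a2, which makes retinoic acid, read 147 and 433. The orphan nuclear receptors Nr4a3 (464 and 1279) and Nr4a2 (59.7 and 188) both differed by 1.43. In WT cells these 2 genes were lower at 12 h than before LPS (837 and 403), whereas in RasGRP4-null cells Nr4a3 was above its untreated level of 569. Grasp, a scaffold protein gene, read 302 and 858, and Anxa3, an annexin gene, read 157 and 453. Lad1 (84.0 and 298), Tmem184a (53.9 and 203) and Gm15726 (98.3 and 486) complete the largest positive differences with Mcpt1, which is described with the mast cell genes. Adjusted p-values of these genes other than Apol7c and Ccl22 ranged upward from 0.106 (Tmem184a).

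**Figure D3:**
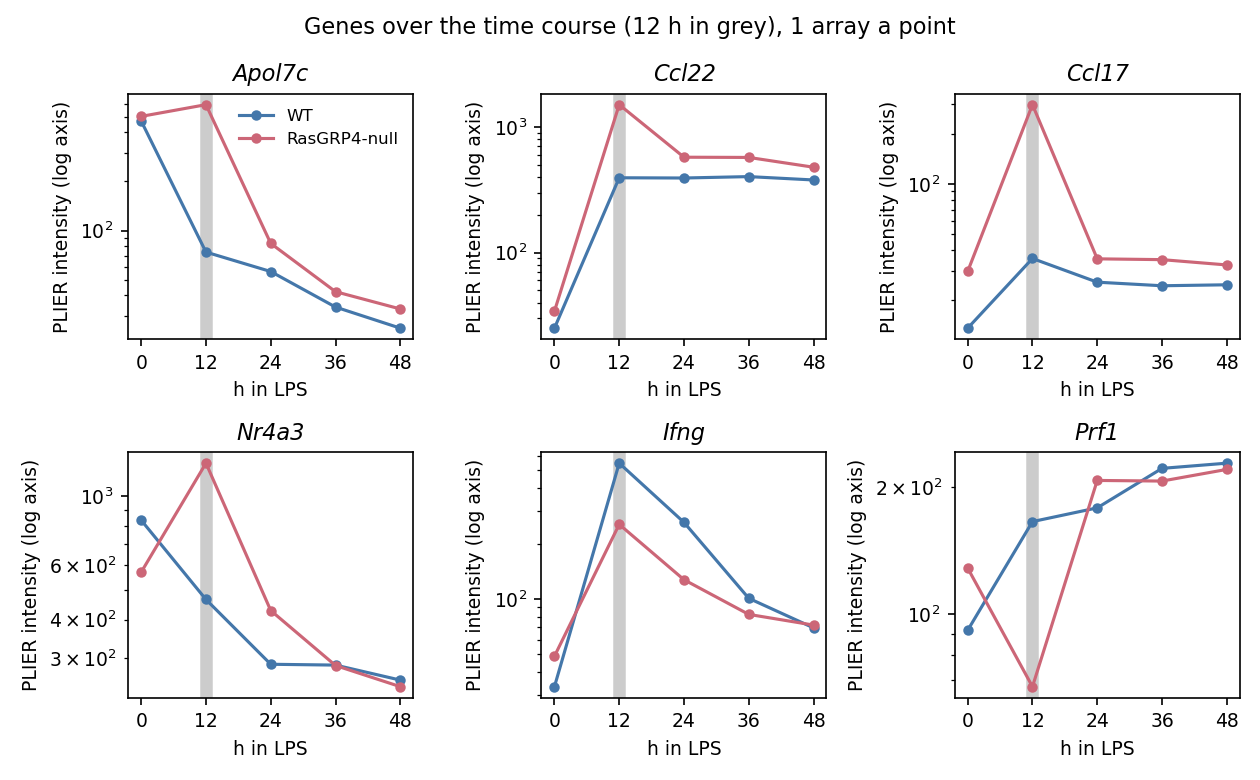
PLIER intensity (log axis) of 6 genes against hours in LPS in WT and RasGRP4-null cells, 1 array a point, with 12 h marked by a grey band. Apol7c, Ccl22, Ccl17 and Nr4a3 are higher on the RasGRP4-null array of 12 h (591, 1503, 298 and 1279) than on the WT array, and Ifng and Prf1 are lower (254 and 67.5).

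Genes of DC maturation stood together above the other time points. Of 15 tested members, 14 lay above the range of the other 4 differences and none below, where 23.0% of all genes tested lay above and 26.1% below. Their median difference was 0.67 at 12 h and -0.08 to 0.20 at the other times. The list holds Apol7c and Ccl22, already described above, which are its 2 members over 2-fold higher. For these 2 genes the list adds nothing new, and it was chosen with earlier results of these data known. The costimulatory genes were among them. Cd80 read 1549.9 in WT and 2472 in RasGRP4-null cells, Cd86 read 821 and 1202, and Cd40 read 591 and 927. Cd86 and Cd40 were lower in RasGRP4-null cells at all other times (-0.62 to -0.15 and -0.32 to -0.06). Pdcd1lg2, which encodes the ligand PD-L2, read 238 and 439, Fscn1, the actin bundler of DC dendrites, 1042 and 1788, and Samsn1, a signalling adaptor, 301 and 583. The differences of Ccr7, the receptor that takes DCs to lymph nodes (2505 and 3226), and of Cd83 (532 and 618) were smaller, 0.36 and 0.21. With GAPDH-normalized values the median was 1.06, or 0.72 above that of all genes. A pair of DC genes outside the list, named after their values were seen, were higher too: Ly75, which encodes DEC-205 (261 and 656), and Zfp366, which encodes DC-SCRIPT (243 and 652). They were picked for their values and say nothing of DC genes as a group.

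Other DC genes did not share this direction. Among 7 tested genes common to conventional DCs, 2 lay above and 2 below the other differences. Flt3, the receptor that sustains DCs, read 125 and 251, and Zbtb46, a transcription factor of conventional DCs, read 91.4 and 160.4. Cd24a read 1573 and 874 in the opposite direction. Of 6 tested genes for MHC class II presentation, 2 lay above and 2 below, and H2-DMb2, a peptide exchange chaperone of B cells, was lowest at -0.70 (662 and 403). The lists of SIRPA-type and XCR1-type conventional DCs and of plasmacytoid DCs had medians of -0.04, -0.05 and 0.10. In a bulk sample fewer cells of a type and less RNA per cell cannot be told apart, here and for the lists below.

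NF-kappaB subunits and their feedback inhibitors differed the same way as the maturation genes. Of 16 tested genes, 11 lay above the other 4 differences and none below, with a median of 0.39 at 12 h and -0.20 to 0.27 at the other times. The 0.27 was that of 24 h, when all 16 were higher in RasGRP4-null cells, as 15 were at 12 h. Nfkb2, the subunit of the alternative pathway, read 516 in WT and 823 in RasGRP4-null cells, and its partner Relb read 227 and 364. The inhibitors Tnfaip3, which encodes A20 (400.3 and 637), and Nfkbia, which encodes the inhibitor of NF-kappaB alpha (868 and 1317), were also higher. At 36 and 48 h all 4 were lower in RasGRP4-null than in WT cells, with differences of -0.44 to -0.06. None of the 16 passed the indicator's threshold. The median of GAPDH-normalized values was 0.44 above that of all genes.

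Transcripts that follow Ras and ERK signalling were mostly higher, 18 of 23 tested. Of these 23, 11 lay above and 2 below the other differences, and the median was 0.23, next to 0.25 at 24 h. Besides Nr4a2 and Nr4a3, Ier3, an immediate early gene, read 132 in WT and 295 in RasGRP4-null cells at 12 h. Egr3, a zinc finger early response gene, went the other way at 102 and 49.2. Among inflammatory genes Ptgs2, which encodes cyclooxygenase-2, read 345 and 718, whereas Lcn2, the iron-binding lipocalin, read 669 and 286 and Clec4e, a C-type lectin receptor, read 168 and 73.3. Of the 15 tested genes of that list, 7 lay above and 3 below.

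**Figure D4:**
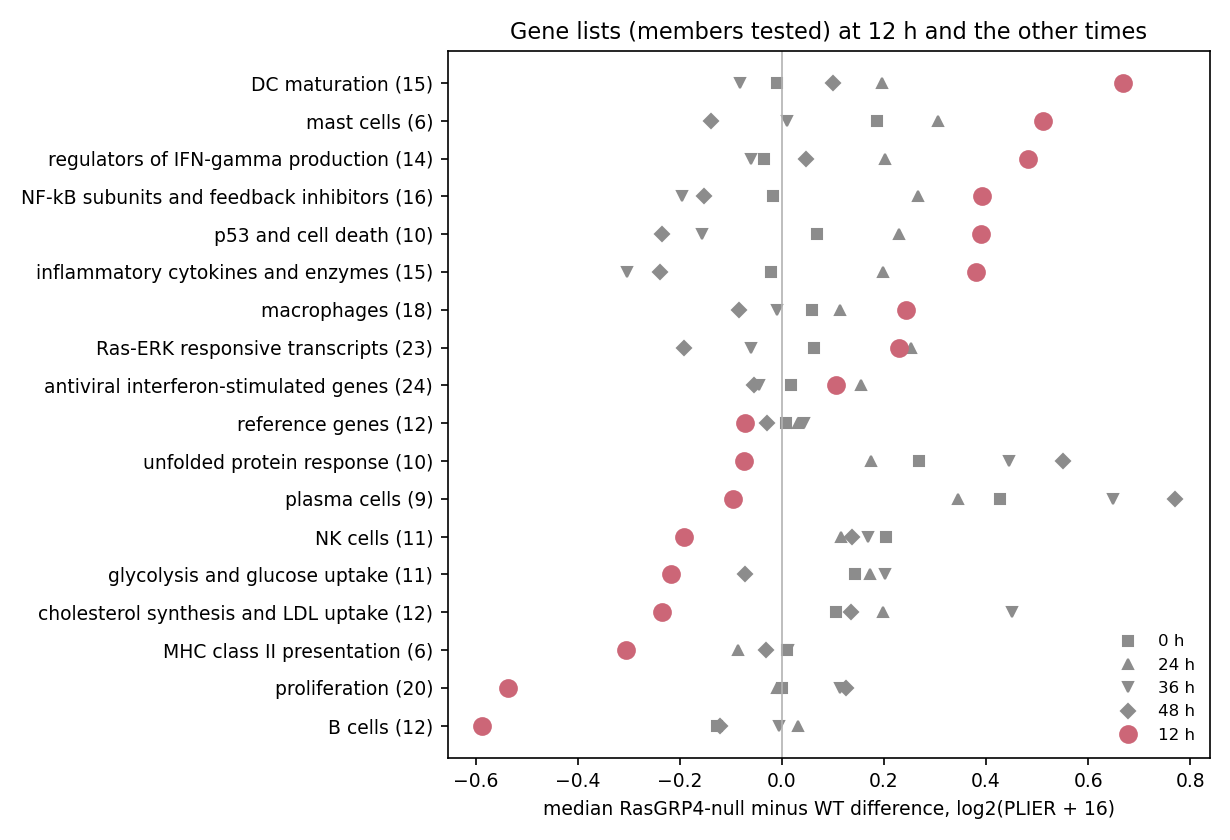
Median RasGRP4-null minus WT difference, on the scale log2(PLIER value + 16), of 18 gene lists at 12 h (red) and at the other 4 time points (grey), with the number of members tested in parentheses. At 12 h DC maturation is highest (0.67) and B cells are lowest (-0.59), both beyond the medians of all other times.

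Ifng, the gene of the cytokine the study is about, was lower in RasGRP4-null cells at 12 h, the time of the highest value in both genotypes. It read 33.2, 548, 261, 101 and 69.5 in WT cells from 0 to 48 h. In RasGRP4-null cells it read 48.7, 254, 127, 82.3 and 72.0. The 12 h difference was -1.06 (2.09-fold), and those of 24, 36 and 48 h were -0.95, -0.25 and 0.04. The first 2 of these were thus close to each other, and the indicator did not separate it from the others (coefficient -0.87, SE 0.399, adjusted p = 0.448 in limma). With GAPDH-normalized values the 12 h difference was -0.69.

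Genes that drive IFN-γ production differed in both directions at 12 h. Of 14 tested regulators, 9 lay above and 5 below the other 4 differences, with none inside. The higher ones included genes of cytokines that DCs give to NK cells. Il12a read 89.5 in WT and 151 in RasGRP4-null cells, Il12b 39.4 and 68.9, Il15 103 and 179, and its presenting receptor Il15ra, which is also in the DC maturation list, 210.2 and 363. Ebi3 (236 and 379.6) and Il27 (87.8 and 136), whose products form IL-27, were also higher. Il23a also lay above, but was not above background on either array (17.8 and 31.2). Another cytokine gene of this kind, Il18, lay below (41.7 and 35.6). The other lower ones included receptors on the responding cell. Il18r1 read 69.8 and 47.9, Il18rap 48.5 and 31.6 (not above background in RasGRP4-null cells) and Il12rb1 177 and 129. Il12rb2 (372 and 527) and Stat4 (1294 and 1677), which also act in the responding cell, lay above. Il10, which restrains IFN-γ, was higher in RasGRP4-null cells at all other times (0.23 to 0.84) but not at 12 h (226 and 194). None passed the indicator's threshold.

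Some cytotoxic genes of NK cells were lower. Prf1, which encodes perforin, read 91.7, 166, 178, 221 and 227 in WT cells and 129, 67.5, 207, 206 and 219.9 in RasGRP4-null cells from 0 to 48 h. The RasGRP4-null value of 12 h was the lowest of the 10, a difference of -1.12 against -0.09 to 0.42 at the other times. Gzma, which encodes granzyme A, read 229 in WT and 102 in RasGRP4-null cells at 12 h, Nkg7 226 and 142, and Ncr1, the NK cell receptor NKp46, 254 and 192. Of 11 tested NK cell genes, 8 were lower and 3 higher in RasGRP4-null cells. Among the 11, 6 lay below and 2 above the other differences, with a median of -0.19. Gzmb, another cytotoxic gene of the list, is not reported here. Scaled to Gapdh the median was 0.07, which is 0.27 below that of all genes. The 2 above were chemokine genes that NK cells share with other cells, Xcl1 (82.8 and 189) and Ccl5 (1845 and 2786). The 14 NK cell genes measured summed to 3674 in WT and 4246 in RasGRP4-null cells, of which Ccl5 gave 1845 and 2786.

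B cell genes were lower on the RasGRP4-null array of 12 h. Of 12 tested, 9 lay below the other 4 differences and none above, and the median was -0.59 at 12 h and -0.13 to 0.03 at the other times. Cd22, an inhibitory receptor of B cells, read 1019, 987, 1147, 982 and 886 in WT cells and 921, 491, 1291, 1067 and 808 in RasGRP4-null cells from 0 to 48 h. The difference was -0.98 at 12 h and between -0.14 and 0.17 at the other times. Ms4a1, which encodes CD20, read 1092 and 619.9 at 12 h, and Cd79a of the B cell receptor 916 and 594. Cr2, the complement receptor of mature B cells, read 90.4 and 52.1 and was the other way round at all other times. The 12 genes summed to 7636 in WT and 5081 in RasGRP4-null cells, and all 12 were above background on both arrays. On the GAPDH-normalized scale the median was -0.21, or 0.55 below that of all genes, with 4 of the 12 higher.

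By their medians, plasma cell and antibody genes did not show at 12 h the higher level that RasGRP4-null cells had at other times. The median of 9 tested plasma cell genes was -0.10 at 12 h, against 0.35 to 0.77 at the other 4 times, and 5 of the 9 lay below all of them. Derl3, a factor of endoplasmic reticulum quality control, read 139 in WT and 94.8 in RasGRP4-null cells. Prdm1, which encodes the plasma cell regulator Blimp-1, read 234 and 349.5 and Xbp1 731 and 1030.2, both inside the range of the other times. Of 23 tested genes named Igh, Igk or Igl, a family looked at after their values were seen, 16 lay below the other differences. Their median was -0.07 at 12 h and 0.34 to 0.70 elsewhere. A probe set shared by Igh-VJ558, Ighg1 and Ighm, which this family leaves out, was lower in RasGRP4-null cells from 12 to 48 h (-2.02 at 12 h). Genes of the unfolded protein response, which secretory cells use, followed with 7 of 10 below and a median of -0.07 against 0.18 to 0.55. Scaled to Gapdh the plasma cell median was 0.20, which is 0.14 below that of all genes.

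Proliferation genes were lower, all 20 tested below WT at 12 h. Of these, 17 lay below the other 4 differences and 1, Tyms, above, with a median of -0.54 at 12 h and -0.01 to 0.13 at the other times. Ccna2, the cyclin of S and G2 phase, had intensities of 169, 251, 469, 587 and 546 in WT cells and 179, 121, 499, 621 and 571 in RasGRP4-null cells. WT cells had thus passed their untreated level by 12 h, and RasGRP4-null cells were under it at 12 h and level with WT from 24 h on. The mitotic kinases Aurkb (205 and 97.0) and Plk1 (162 and 87.1) and the cyclin Ccnb2 (121 and 59.5) differed likewise at 12 h. The replication helicase gene Mcm3 read 629 and 385. Mki67, the usual marker of cycling cells, read 349.6 and 318, a difference of -0.13 inside the range of the other times. On the GAPDH-normalized scale the median was -0.16, or 0.50 below that of all genes, and 5 of the 20 were higher.

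**Figure D5:**
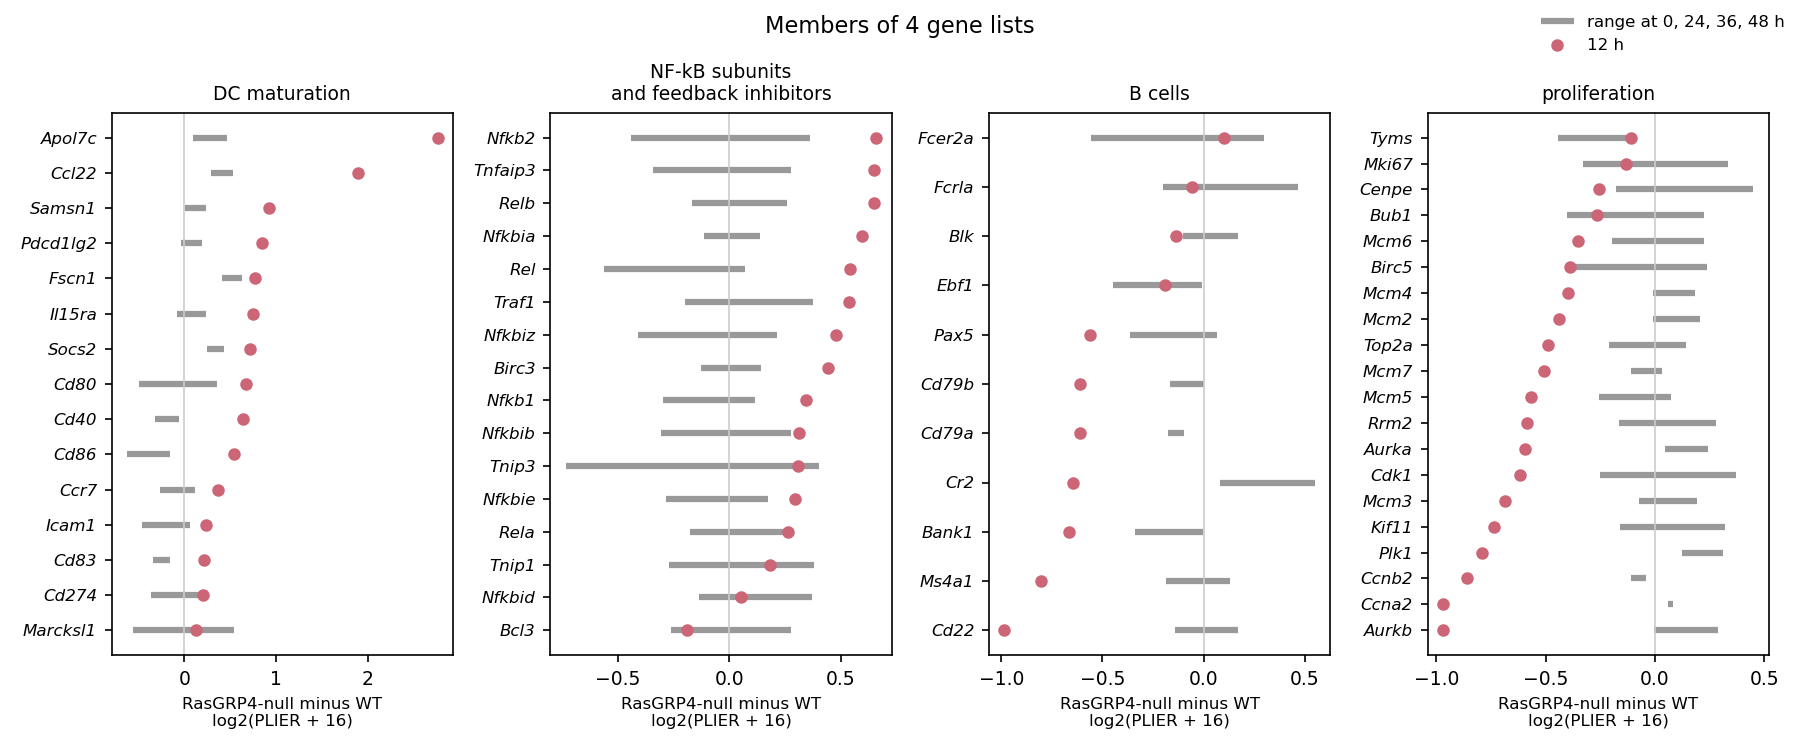
RasGRP4-null minus WT difference at 12 h (red points), on the scale log2(PLIER value + 16), for tested members of 4 gene lists, with the range of the 4 other time points as a grey bar (1 B cell gene is not drawn). DC maturation and NF-kappaB genes lie mostly to the right of their bars (14 of 15 and 11 of 16), and B cell and proliferation genes to the left (17 of 20 for proliferation).

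Genes of cholesterol synthesis and glycolysis were also lower. Of 12 genes of cholesterol synthesis and uptake, 10 lay below the other differences and none above, with a median of -0.24 against 0.11 to 0.45. Cyp51, an enzyme of the pathway, read 272 in WT and 163 in RasGRP4-null cells. Of 11 glycolysis genes 7 lay below and none above, with a median of -0.22 against -0.07 to 0.20. Pfkl, a phosphofructokinase, read 216 and 130.5, Pkm, the pyruvate kinase of growing cells, 1819 and 1311, and Ldha, a lactate dehydrogenase, 730.1 and 529. On the GAPDH-normalized scale both medians turned positive (0.13 and 0.17) and were 0.21 and 0.17 below that of all genes. Gapdh is itself a glycolytic gene.

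Genes of p53 and cell death were mostly higher, 9 of 10 tested. Of the 10, 7 lay above the other differences and none below, with a median of 0.39 against -0.24 to 0.23. Cdkn1a, the cyclin-dependent kinase inhibitor p21, read 174, 881, 521, 655 and 843 in WT cells and 212, 1858, 823, 584 and 717 in RasGRP4-null cells. The 12 h value of the null cells was the highest of the 10. Pmaip1, which encodes the BH3 protein Noxa, read 73.2 and 141 at 12 h, and Ccng1 593 and 955. Also over 2-fold higher were 4 antioxidant genes, which were picked out for their values and say nothing of antioxidant genes as a group. Hmox1, the heme-degrading oxygenase, read 270.0 and 639, Nqo1, a quinone reductase, 59.0 and 167, Gclc, of glutathione synthesis, 368 and 808, and Slc7a11, the cystine transporter, 103 and 229.

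Mast cell genes were brighter on the RasGRP4-null array of 12 h, at low intensities. Kit, which encodes the CD117 used for sorting, read 292, 179, 133, 184 and 257 in WT cells and 287, 334, 183, 237 and 271 in RasGRP4-null cells. The difference of 0.84 at 12 h stood against -0.03 to 0.41 (adjusted p = 0.323 in limma). Mcpt1, a mast cell chymase, read 26.6 in WT cells, not above background, and 109.8 in RasGRP4-null cells, at least 2.75-fold higher. Tpsb2, a tryptase, read 13.8 and 57.9, at least 1.62-fold higher, and Mcpt2 read 11.0 and 45.8, at least 1.35-fold higher. Neither was bright enough to be tested. The receptor genes Fcer1a (6.44 and 9.77) and Il1rl1 (13.7 and 27.6) were not above background on either array. Of 14 mast cell genes measured, 4 were above background on both arrays and 6 on neither, and the list summed to 527 in WT and 1004 in RasGRP4-null cells, Kit included.

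Markers of the other cell types that the preparation could hold were read beside these lists. Of 18 macrophage genes 17 were higher, with Hmox1 and Mertk (82.2 and 179) leading, and 6 lay above and 1 below the other differences. They summed to 1436 in WT and 2183 in RasGRP4-null cells at 12 h, against 27280 and 28210 before LPS. The defining genes Emr1, Csf1r and Mrc1 were not above background on either array of 12 h. Both tested basophil genes lay above with the mast cell genes, the protease genes Mcpt8 (28.4, not above background in WT, and 60.4) and Prss34 (35.6 and 45.2), and the 3 basophil genes measured summed to 70.3 and 112.4. Of 5 tested monocyte genes 3 lay below and none above, with a median of -0.27. Neutrophil genes had a median of 0.00, with 5 of 10 higher and 5 lower, 1 above and 2 below the other differences. Among the lower ones were Ngp (66.0 and 26.2, not above background in RasGRP4-null cells) and S100a8 (547 and 307). Before LPS the neutrophil median was -0.59, and none of the 10 was higher in RasGRP4-null cells. T cell genes differed both ways, with 2 of 12 above and 5 below. Of these 12, 8 were higher and 4 lower in RasGRP4-null cells, with a median of 0.09. The 13 T cell genes measured summed to 1373 in WT and 1582 in RasGRP4-null cells, and Cd3e, a lower one, read 208 and 144. The part of cell composition in the results above was not tested. Of 12 reference genes 1 lay above and 3 below, with a median of -0.07.

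The largest negative differences were spread over many functions. Pld4, an endosomal exonuclease of B cells and plasmacytoid DCs, read 1124, 279, 472, 455 and 388 in WT cells and 1258, 100.4, 582, 585 and 389 in RasGRP4-null cells, a difference of -1.34 at 12 h against 0.00 to 0.35 (coefficient -1.54, adjusted p = 0.0720 in limma). Znrd1, a subunit gene of RNA polymerase I, read 154 and 38.9 at 12 h, against 108 to 169.6 on all other arrays (adjusted p = 0.0961 in limma). Tnfrsf8, which encodes CD30, read 171 and 67.5, and Xrcc5, which encodes the DNA repair protein Ku80, 265 and 106. Decr2 (125 and 44.9), of peroxisomal fatty acid oxidation, Tbcd (203 and 81.0), a tubulin folding factor, and Rab2b (162 and 59.8), a small GTPase, were also lower. The rest of the largest negative differences were Lcn2, Snord72 (552 and 216), 1700011B04Rik (471 and 149.7), Gm8814 (343 and 137) and the olfactory receptor gene Olfr988 (144 and 32.1).

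TNF superfamily genes and interferon-stimulated genes were mixed. Tnfsf9, which encodes the 4-1BB ligand, read 77.3 and 219, and Tnfsf4, which encodes the OX40 ligand that the study blocked, read 125 and 201. In the study the blocking antibody made no significant difference to IFN-γ production in co-cultures of WT cells. Of 13 tested members of the superfamily, 6 lay above and 3 below. Of 24 antiviral interferon-stimulated genes, 8 lay above and 2 below, with a median of 0.11 at 12 h and 0.15 at 24 h. Of 19 genes induced by IFN-γ, 7 lay above and 2 below, with a median of 0.14.

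The genes that differed at 12 h were set against the time course of arrays other than those of 12 h. Of the 90 higher genes, 53 were higher at 24 h than before LPS in WT cells (58.9%), as were 57.5% of all genes tested. Of the 39 lower genes, 27 were (69.2%). In WT cells, 62.2% of the higher, 38.5% of the lower and 64.2% of all genes had a higher value at 48 h than at 24 h. After 12 h of LPS, 1838 genes of WT and 1712 of RasGRP4-null cells were over 2-fold above their untreated value, and after 24 h 1451 and 1757 were.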

How the data were processed

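The authors computed PLIER intensities from Affymetrix MoGene-2.0-st arrays with Expression Console and deposited them beside GAPDH-normalized intensities (PLIER times 1 factor per array) and a rounded value table, which differed from the latter by at most 0.5. Another 10 columns that repeat PLIER values were not used. The precision is limited by the number of arrays.

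Among 41345 probe sets 26679 name 1 symbol, 3047 several and 11619 none. That for Gapdh lists 21 symbols. The brightest probe set of each symbol was kept, and genes were tested where 2 or more arrays reached 50. The model was fitted with limma 3.58.1 (R 4.3.3) on log2(PLIER value + 16), two-sided, Benjamini-Hochberg threshold 0.05, and tested on simulated data. Python 3.11.15, pandas 2.3.3 and matplotlib 3.10.9 were used. P-values measure the spread between single arrays. The 38 lists, the comparison and the tests were chosen with earlier results of these data known. Named were the RasGRP family, Kit, Ifng and genes of the paper, the 12 largest positive and 12 largest negative differences beyond the other differences with the brighter array at 100 or more, all genes called, and up to 4 leading members per list, with exceptions. Some named members are not reported here. Promoters came from RefSeq (GRCm38.p6), and 60 of 90 higher genes matched. Alternatives were other scales, pseudocounts, filters, folds and subsets of time points.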

Additional observations from a re-analysis of the deposited data

Results flagged for a closer look

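A pair of genes had a RasGRP4-null minus WT difference at 12 h that differed from those of the other time points by the limma test of the indicator. Apol7c was higher (coefficient 2.50, SE 0.209, adjusted p = 0.00203). The adjusted p was between 3.01e-04 and 0.0234 under the other scales and pseudocounts and without any 1 of the other time points. Mela was lower (coefficient -5.98, SE 0.396, adjusted p = 4.71e-04). It was below background on the RasGRP4-null array of 12 h and high on the other 4, so the size of this coefficient rests on a value that is only a bound. Its adjusted p was between 6.06e-06 and 0.00889 under the same alternatives. When the RasGRP4-null array titled 24 h took the place of the one titled 12 h, the coefficients were -0.04 and -0.24 and neither passed.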

How the results depend on the processing

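No paired analysis was possible because the labels give no replicate numbers and each genotype and time point has 1 array, beyond the match of the genotypes by time point that every fit holds. The counts over 2-fold (90 higher, 39 lower) were 381 and 7 with GAPDH-normalized values, 384 and 6 with the value table, 154 and 88 with a pseudocount of 1, 32 and 10 with 64, 490 and 342 at 1.5-fold, 44 and 1 by the cut-offs of the methods applied between the genotypes (over 1% of Gapdh and over 3.6-fold), and 20 lower with the array titled 24 h in place of that of 12 h. The indicator's counts (1 and 1) were 162 and 3 with GAPDH-normalized values, 174 and 3 with the value table, 5 and 2 with a pseudocount of 64, 2 and 1 with no filter or without the 24 h arrays, 2 and 2 with a filter at 100 or an intensity trend, and 0 and 0 with the array titled 24 h. The cause was not tested. Of 27 named genes under 9 settings, no coefficient changed sign, 226 values kept their side of the threshold and 17 passed it anew, mostly with GAPDH-normalized values, Ccl22 (adjusted p = 0.0150) and Kit (0.0478) among them. The array titled 24 h in place of that of 12 h was not among these 9 settings. With it the coefficient of Apol7c changed sign, from 2.50 to -0.04. Of 60 list medians (12 lists, 5 settings) 44 moved by less than their spread over the other time points. With GAPDH-normalized values none of the 12 did, and these 5 settings also leave out the exchange of arrays. Values near background limit the mast cell genes.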

Other observations

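Probe sets that carry several gene symbols or none were left out of the tests. Of 1501 with several symbols that passed the same filter, 15 were over 2-fold higher and 4 over 2-fold lower in RasGRP4-null cells at 12 h, and of 3449 with no symbol 46 were higher and 29 lower. For comparison, 90 of the 11185 genes tested were higher (0.805%) and 39 lower (0.349%). The largest difference among probe sets with several symbols was that of a probe set for Igh-VJ558, Ighg1 and Ighm. It read 733 in WT and 168 in RasGRP4-null cells at 12 h, a difference of -2.02 against -1.43, -1.43 and -1.24 at 24, 36 and 48 h and 0.02 before LPS. A probe set shared by the beta-globin genes Hbb-b1 and Hbb-b2 and their relatives read 178 and 435 at 12 h. It was also higher in RasGRP4-null cells before LPS (844 and 1500). Of 10 tested genes of red cell precursors, 4 were higher and 6 lower at 12 h, with a median of -0.17. The probe sets of the MHC class II genes H2-Ab1 and H2-Aa, each shared with another symbol, differed by 0.04 and -0.20, and that of Cd74, the invariant chain, by -0.01.

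Small nucleolar RNA genes had a median difference of -0.15 at 12 h over 53 tested, next to -0.15, -0.23 and -0.33 at 24, 36 and 48 h and 0.07 before LPS. Histone genes had -0.48 over 13 tested, with 9 below the other differences. Their median was -0.33, 0.14 and 0.15 at 24, 36 and 48 h and 0.24 before LPS. At 12 h, 1 of the 13, Hist1h2aa, was over 2-fold higher and 2 were over 2-fold lower. Hist1h1b, a linker histone gene of S phase, read 175 in WT and 76.5 in RasGRP4-null cells. The families of this paragraph were picked by name after their values were seen. Ribosomal protein genes had a median of 0.02 over 29 tested. By the cut-offs of the methods, applied here between the genotypes, over 1% of Gapdh and over 3.6-fold with GAPDH-normalized values, 44 genes were higher and 1, Pydc3, lower.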
